A study of Mus musculus with 14 samples.

Results

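Granulocyte-monocyte progenitors (GMPs), the bone marrow cells that give rise to neutrophils and monocytes, were compared between AML1-ETO and control mice across all genes. The comparison used 7 of the 14 bulk RNA-seq libraries in the study, taken by their labels: AML1-ETO GMP replicates 1 to 3 and control GMP replicates 1 to 4. The other 7 libraries came from long-term haematopoietic stem cells (LT-HSCs). All mice are labelled C57BL/6. AML1-ETO samples carry the genotype label Runx1-Runx1t1 and controls the label WT, and poly(I:C), an RNA mimic that induces interferon, is listed for both groups at 5 mg/kg in 4 doses. Poly(I:C) served to activate Mx1-Cre, in which interferon switches on the recombinase in many cells of the marrow, so the fusion gene was not confined by design to GMPs. The labels do not say whether the control mice carried Mx1-Cre, how long after the last dose cells were sorted, which surface markers were used, the age and sex of the mice, or whether a library came from a single mouse. P-values therefore reflect only how far these samples scatter, part of which may be technical. The title of the series links the work to fatty acid metabolism and to a differentiation block before leukaemia.

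In acute myeloid leukaemia, the t(8;21) translocation gives rise to the fusion protein AML1-ETO. It joins the DNA-binding domain of RUNX1, a transcription factor that acts with its partner CBFB, to most of RUNX1T1 (ETO), which recruits co-repressors and histone deacetylases, and it is known for holding back granulocyte differentiation, in part through lower CEBPA. GMPs normally make the primary granule proteins myeloperoxidase and neutrophil elastase under C/EBP and PU.1 factors, and lack globins, platelet genes and mature lymphoid genes.

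Levels are given as CPM, read counts scaled to library size by TMM, in the order of the replicate numbers, AML1-ETO first. Log2 fold changes, AML1-ETO over control, are given ± SE with Benjamini-Hochberg adjusted p-values from edgeR's quasi-likelihood test over all genes, and those with an adjusted p below 0.05 are called changed. The fusion was checked first. Runx1t1 (chromosome 4, 13743436 to 13893649, mm10), which holds the ETO part, stood at 25.3, 25.6 and 44.5 CPM against 2.52, 2.23, 1.62 and 2.63 CPM. Every AML1-ETO library was above every control library (log2 fold change 3.82 ± 0.32, adjusted p = 0.00162). Runx1 reads, from the normal gene and the fusion alike, stood at 213, 213 and 164 CPM against 164, 204, 182 and 179 CPM, overlapping groups without a call (adjusted p = 0.660). Markers of the labelled cell type were present in all 7 libraries: the summed level of 11 GMP markers ran from 21296 to 34920 CPM in AML1-ETO and from 28283 to 32282 CPM in control. Mpo, which encodes myeloperoxidase, stood at 13521, 23489 and 12169 CPM against 17487, 16986, 16833 and 18893 CPM. Of 4 genes that are absent or low in GMPs (Ly6a, Il7r, Hlf and Procr), 1 was called higher, and their summed level was 34.8, 12.2 and 25.7 CPM in AML1-ETO against 8.29 to 11.9 CPM in control. Ly6a (Sca-1), a surface protein of stem cells, stood at 18.8, 2.67 and 6.75 CPM against 1.28, 1.04, 0.748 and 0.112 CPM (log2 fold change 3.55 ± 0.91, adjusted p = 0.0482). Every AML1-ETO library was above every control library, and the call ended when single libraries were left out (adjusted p up to 0.160). Il7r, a receptor of lymphoid progenitors, stood at 3.64, 0 and 5.55 CPM against 0.154, 0.725, 0.187 and 0.112 CPM and was not called (adjusted p = 0.212).

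The 3 AML1-ETO libraries differed far more from each other than the controls did. Total counts were 15620007 to 16707082 in AML1-ETO and 16121039 to 19403864 in control. Pearson's r of log2 CPM over 12735 genes was 0.787 to 0.828 between AML1-ETO libraries and 0.984 to 0.987 between control libraries, and the median SD per gene was 0.436 against 0.147 on the log2 scale. The first principal component (44.7% of variance) set AML1-ETO replicates 1 and 3 apart, and replicate 2 lay nearest the controls. AML1-ETO libraries held counts for 13473, 14887 and 14077 genes and control libraries for 18747 to 19508, a mean difference of -4989 genes. After thinning every library to the smallest total the mean difference was -4812 genes. The two-sided exact permutation test gave p = 0.0286, the smallest possible with 3 and 4 libraries, or 0.0714 adjusted over 5 library measures. Among the 2524 genes with a control mean of 1 to 5 CPM, 37.0%, 16.0% and 29.3% had no count in the AML1-ETO libraries, and in each control library at most 0.233% of such genes did. Xist, made from the inactive X of female cells, stood at 579, 1.08 and 499 CPM against 0.103, 0.569, 1.62 and 28.7 CPM, while the Y-linked Ddx3y stood at 42.2, 121 and 73.3 CPM against 108, 117, 88.6 and 93.4 CPM. AML1-ETO replicates 1 and 3 thus hold reads of both kinds, as does control replicate 4, with less Xist.

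**Figure D1:**
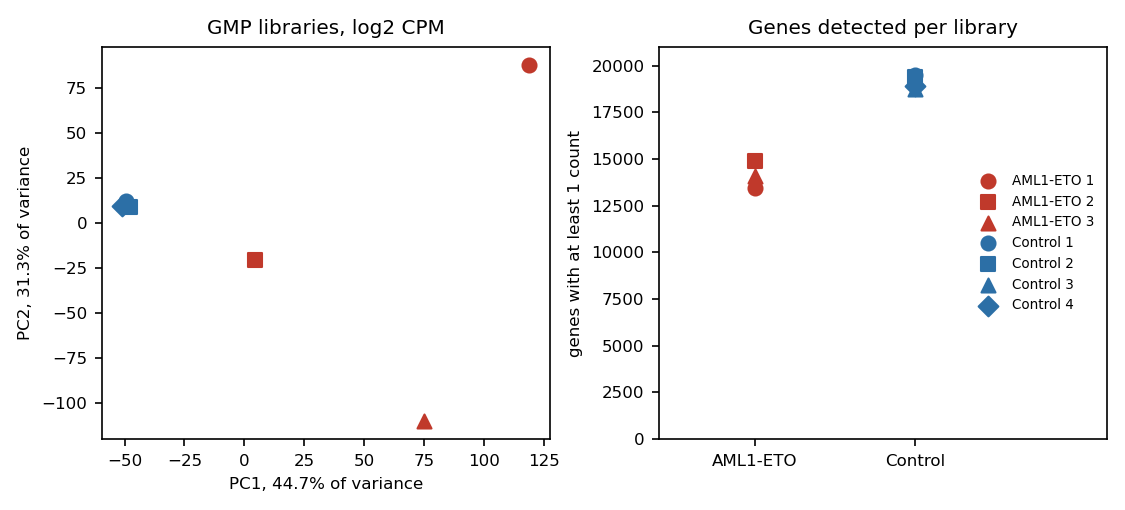
Left, the first and second principal components of log2 CPM for the 7 GMP libraries, with the share of variance on each axis; right, the number of genes with at least 1 count in each library. Red marks AML1-ETO and blue control, and the shape gives the replicate. The 4 controls fall together, the 3 AML1-ETO libraries fall apart, and these hold 13473 to 14887 genes against 18747 to 19508.

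Markers of other blood cells moved with the group, unevenly between libraries. Summed markers of the mast cell or basophil reached 2101, 2176 and 3420 CPM in AML1-ETO against 332 to 536 CPM in control, and 4 of 7 were called higher. Neutrophil markers summed to 2937, 345 and 557 CPM against 40.4 to 55.8 CPM (3 of 6 called), and erythroid markers to 4167, 48.8 and 1158 CPM against 5.50 to 9.26 CPM (2 of 5 called). Megakaryocyte markers stood out in AML1-ETO replicate 3 (1473 CPM, with 207 and 144 CPM in replicates 1 and 2, against 81.3 to 102.9 CPM). Monocyte markers were lowest in AML1-ETO replicate 2 (2201, 633 and 1125 CPM against 1663 to 1963 CPM), as were those of B or plasma cells (193, 6.49 and 411 CPM against 125 to 154 CPM). Markers of T or NK cells overlapped (230 to 330 CPM against 262 to 306 CPM). Endothelial or stromal markers summed to 49.7, 0 and 2.93 CPM against 0.104 to 0.224 CPM, and none was called. In AML1-ETO replicate 2, 3 of the 6 neutrophil markers (Ltf, Ngp and Ly6g) were at 0, while S100a8, S100a9 and Camp stood at 219, 121 and 5.72 CPM against at most 42.7, 9.87 and 2.37 CPM in control. Also at 0 in that library were 2 of 5 markers of B or plasma cells (Igkc and Jchain), 3 of 4 of T or NK cells (Cd3e, Trbc2 and Lck) and all 3 of endothelial or stromal cells (Cdh5, Col1a1 and Cxcl12). Igkc, Cd3e and Trbc2 were at 0 in every control too. In bulk samples, more cells of a type and more RNA per cell cannot be told apart, and the part of other cells in the results that follow was not tested except where a value is given.

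**Figure D2:**
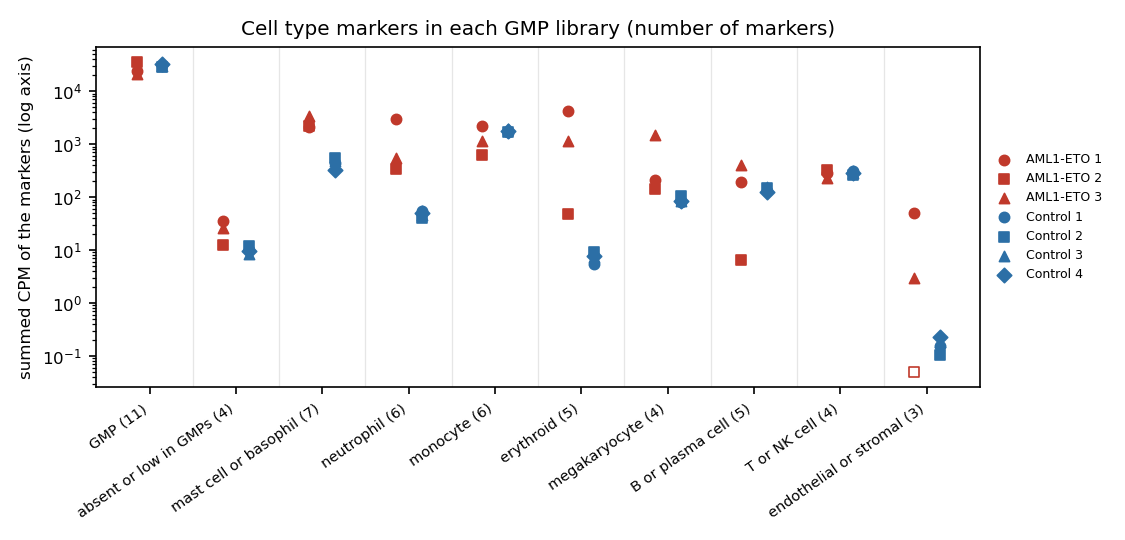
Summed CPM (log axis) of the markers of each cell type in each GMP library, AML1-ETO in red and control in blue, with the shape giving the replicate and an open symbol for a sum of 0. Mast cell or basophil, neutrophil and erythroid sums are above all controls in every AML1-ETO library, and only AML1-ETO replicate 2 has 0 for the endothelial or stromal markers.

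AML1-ETO GMPs had 765 higher genes (5.47% of the 13981 tested) and 554 lower genes (3.96%), 9.43% in either direction. Every AML1-ETO library was above every control library for 11.1% of the genes tested and below for 15.3%. That placement held for 756 of the 765 genes called higher and for all 554 called lower. For a called gene, here and below, it therefore adds little to the call. No called gene turned its sign in any fit without 1 library that still tested it, but the number of calls rested on the controls. Each fit takes a single dispersion per gene for both groups, although the median SD was 0.436 in AML1-ETO and 0.147 in control. The adjusted p-values thus assume a like spread that the groups did not show, and its part in the number of calls was not tested. Leaving out control replicate 1, 2, 3 or 4 left 123, 182, 116 or 121 genes higher and 12, 27, 15 or 13 lower, whereas leaving out AML1-ETO replicate 1, 2 or 3 gave 1258, 1550 or 913 higher and 1219, 1964 or 959 lower. In all, 112 genes, 103 higher and 9 lower, were called in every 1 of these 7 fits. Of the lower genes, 236 had no count in any AML1-ETO library, in the libraries with fewer genes detected, and whether this gap accounts for their calls was not tested. All 4 controls were at 0 for 14 genes called higher.

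The 8 calls with the smallest p all rose and all held in each of the 7 fits. Serpina3f and Serpina3g, mouse serine protease inhibitors, stood at 98.5, 67.0 and 63.5 CPM against 2.62, 2.12, 1.25 and 2.51 CPM and at 295, 638 and 618 CPM against 34.4, 25.7, 30.5 and 33.5 CPM. Their log2 fold changes were 5.16 ± 0.30 (adjusted p = 0.00117) and 4.06 ± 0.27 (adjusted p = 0.00117). C4b, complement component C4, rose from almost nothing: it stood at 277, 431 and 466 CPM against 2.98, 0.414, 2.43 and 3.30 CPM (log2 fold change 7.42 ± 0.53, adjusted p = 0.00117). Lilr4b, a leukocyte immunoglobulin-like receptor, stood at 410.2, 319.8 and 513 CPM against 23.6, 23.7, 11.4 and 11.96 CPM (log2 fold change 4.55 ± 0.33, adjusted p = 0.00117). Carhsp1, an RNA-binding cold-shock domain protein, stood at 57.7, 69.4 and 60.5 CPM against 13.4, 11.3, 13.8 and 11.4 CPM (log2 fold change 2.33 ± 0.15, adjusted p = 0.00117). Every AML1-ETO value of these 5 genes was above every control value. Serpina3f and Serpina3g belong to a cluster of close copies, and C4b has the near-identical copy C4a, so reads may be shared within each pair. The other three, Cma1, Tgtp2 and H2-D1, are described with their groups.

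**Figure D3:**
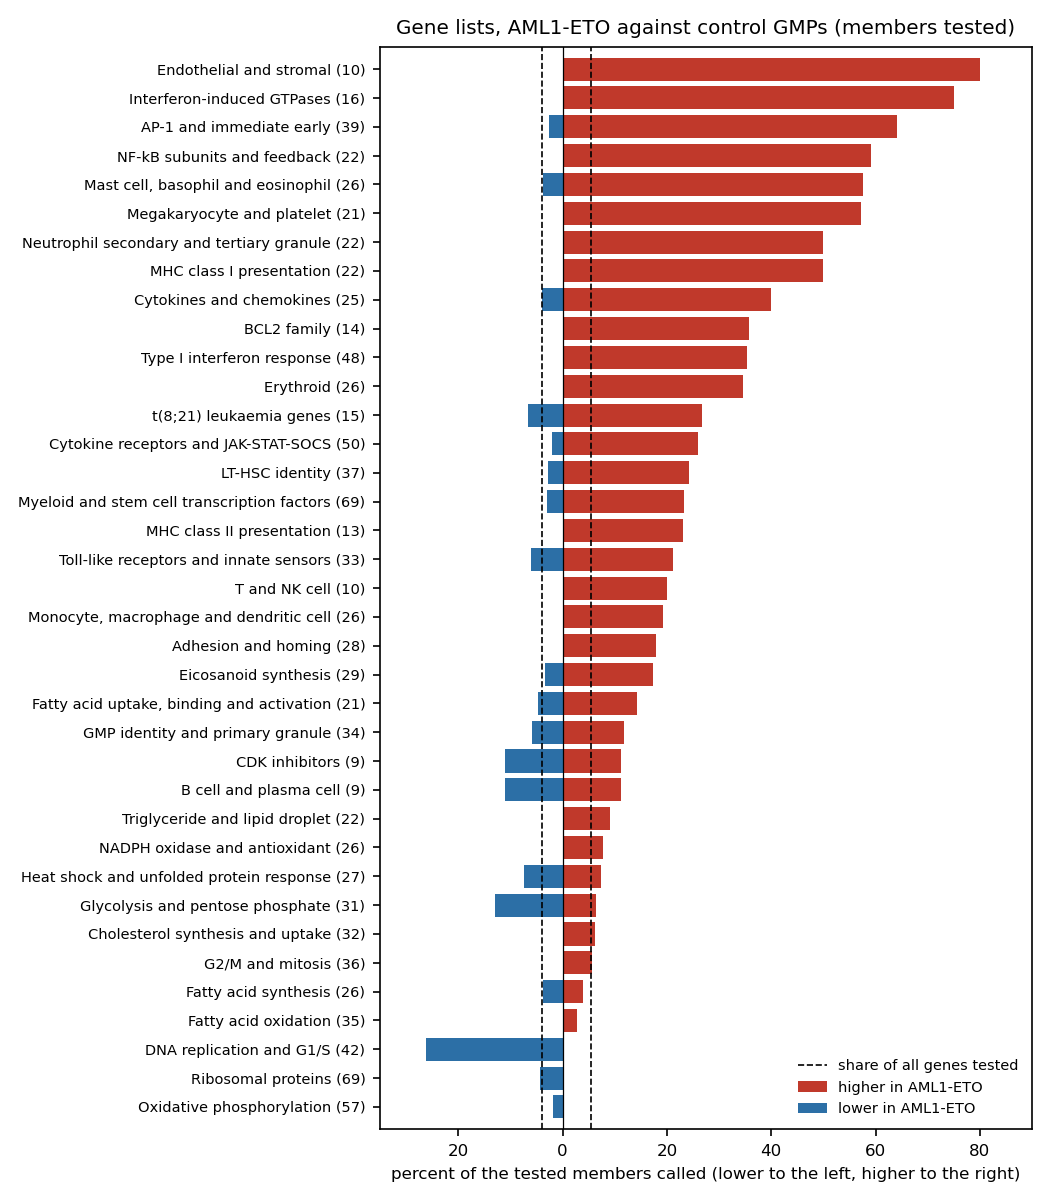
Share of the tested members of each gene list called higher (red, to the right) or lower (blue, to the left) in AML1-ETO GMPs, with the number tested in brackets. Dashed lines mark the shares over all genes tested, 5.47% higher and 3.96% lower; endothelial and stromal genes (8 of 10 tested) lie furthest to the right. Next come interferon-induced GTPases, immediate early, NF-kB, mast cell and megakaryocyte lists. DNA replication is the list with the longest bar to the left.

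Interferon-induced GTPases, which attack membranes around intracellular pathogens, were among the clearest groups. Of 21 listed, 16 were tested, and 12 were higher and 0 lower, against 5.47% higher over all genes; their median log2 fold change was 2.80, against -0.03 over all genes. Tgtp2 (chromosome 11, 49057194 to 49064206), a near-identical copy of Tgtp1, stood at 73.2, 65.8 and 90.9 CPM against 7.504, 9.26, 6.36 and 10.8 CPM (log2 fold change 3.17 ± 0.22, adjusted p = 0.00117). Gbp2, a guanylate-binding protein, stood at 90.5, 93.0 and 50.03 CPM against 6.22, 6.42, 4.74 and 10.6 CPM (log2 fold change 3.48 ± 0.33, adjusted p = 0.00299). Igtp, an immunity-related GTPase, stood at 56.0, 119 and 78.3 CPM against 16.7, 12.9, 15.3 and 17.8 CPM (log2 fold change 2.43 ± 0.26, adjusted p = 0.00465). All AML1-ETO values of these genes were above every control value. Iigp1 was close to silent in control: it stood at 25.5, 27.4 and 41.4 CPM against 0.771, 0.362, 0.187 and 1.06 CPM (log2 fold change 5.70 ± 0.54, adjusted p = 0.00299). Gbp4 had no count in any control library and 7.21, 4.83 and 6.45 CPM in AML1-ETO, at least 149-fold higher against a floor of 3 counts over the control group. Irgm1 and Gbp5 stood at 54.6, 87.8 and 70.0 CPM against 26.7, 26.6, 27.0 and 29.5 CPM and at 70.7, 92.3 and 41.2 CPM against 12.03, 12.6, 13.3 and 16.9 CPM. Gbp3 (102, 84.2 and 69.1 CPM against 85.8, 88.0, 81.0 and 88.0 CPM) and Ifi47 (70.8, 83.9 and 139 CPM against 77.1, 69.4, 74.9 and 89.7 CPM) overlapped between the groups. 9 of these 12 calls held whichever library was left out, and the rest ended without control replicates 1, 2, 3 or 4 (adjusted p up to 0.0841).

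The promoters of these genes share a sequence feature tied to interferon. The list was itself chosen for induction by interferon, so the feature is no separate support for the calls. The letters GAAANNGAA, the core of the interferon-stimulated response element, were searched on both strands from 250 bases before to 50 after the first listed RefSeq start (GRCm38.p6). They were in the promoters of 8 of the 8 higher GTPase genes with a listed promoter and of 9 of the 10 tested ones. Gbp3, which was not called, was among the latter. Over the 9778 tested genes with a listed promoter the share was 7.37%. The promoters of 4 of the higher genes are shown 5′ to 3′ on the strand of the gene, with the matching letters in capitals; a match on the other strand reads TTCNNTTTC.
Tgtp2, chr11:49064163-49064462, minus strand: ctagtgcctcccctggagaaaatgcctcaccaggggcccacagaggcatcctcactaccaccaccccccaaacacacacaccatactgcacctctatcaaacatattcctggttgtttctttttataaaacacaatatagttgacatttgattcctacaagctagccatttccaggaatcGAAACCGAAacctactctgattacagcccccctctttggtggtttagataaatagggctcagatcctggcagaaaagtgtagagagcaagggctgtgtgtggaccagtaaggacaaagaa
Igtp, chr11:58199306-58199605, plus strand: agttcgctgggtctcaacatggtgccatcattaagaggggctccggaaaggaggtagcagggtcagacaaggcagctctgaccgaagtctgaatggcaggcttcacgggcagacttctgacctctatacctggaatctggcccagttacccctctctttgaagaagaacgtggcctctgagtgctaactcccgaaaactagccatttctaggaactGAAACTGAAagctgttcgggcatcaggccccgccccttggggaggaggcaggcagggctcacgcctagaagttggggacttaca
Irgm1, chr11:48871371-48871670, minus strand: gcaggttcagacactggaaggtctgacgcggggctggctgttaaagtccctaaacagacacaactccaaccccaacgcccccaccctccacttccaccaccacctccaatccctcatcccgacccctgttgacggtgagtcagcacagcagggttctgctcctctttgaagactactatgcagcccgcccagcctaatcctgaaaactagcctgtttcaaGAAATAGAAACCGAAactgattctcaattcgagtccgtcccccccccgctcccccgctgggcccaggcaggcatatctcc
Gbp2, chr3:142620413-142620712, plus strand: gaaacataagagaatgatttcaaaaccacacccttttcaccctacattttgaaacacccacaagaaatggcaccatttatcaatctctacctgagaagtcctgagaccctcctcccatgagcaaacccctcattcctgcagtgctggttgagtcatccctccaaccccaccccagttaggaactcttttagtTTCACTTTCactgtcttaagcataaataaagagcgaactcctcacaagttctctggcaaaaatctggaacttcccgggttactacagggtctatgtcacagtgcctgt
The matches begin 70 bases before the start in Tgtp2, 34 in Igtp, 30 and 24 in Irgm1, where they overlap, and 58 in Gbp2. A match describes letters and shows no binding.

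The broader type I interferon list moved in part. Of 48 members tested, 17 were higher and 0 lower (median log2 fold change 0.89). Transcription factors of the pathway were among them. Irf1 stood at 342, 376 and 238 CPM against 84.5, 82.4, 66.1 and 68.3 CPM (log2 fold change 2.08 ± 0.17, adjusted p = 0.00162). Irf7, which amplifies interferon production, stood at 45.8, 14.7 and 35.3 CPM against 3.29, 3.57, 1.93 and 2.24 CPM, with replicate 2 the lowest of the AML1-ETO libraries (log2 fold change 3.53 ± 0.43, adjusted p = 0.00700). Oasl2 stood at 33.9, 29.6 and 67.9 CPM against 6.89, 6.62, 4.11 and 6.26 CPM, and the ubiquitin-like Isg15 at 11.3, 8.08 and 24.5 CPM against 2.78, 2.33, 2.37 and 2.29 CPM (log2 fold changes 2.87 ± 0.34 (adjusted p = 0.00674) and 2.58 ± 0.44 (adjusted p = 0.0179)). Classical targets of type I interferon overlapped: Ifit1 stood at 10.2, 1.14 and 1.25 CPM against 2.88, 1.04, 0.623 and 1.23 CPM, and Mx1, whose promoter drives the Cre here, at 22.5, 1.97 and 8.90 CPM against 4.01, 4.30, 4.18 and 2.85 CPM (adjusted p = 0.383 and 0.225). 7 of these 17 calls held whichever library was left out, and the rest ended without control replicates 1, 2, 3 or 4 or AML1-ETO replicates 1 or 3 (adjusted p up to 0.148). The interferon letters were in 6 of the 12 higher members with a listed promoter and in 18 of the 35 tested members with a listed promoter.

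MHC class I presentation genes, whose products show peptides from inside the cell to T cells, were higher in 11 of 22 tested and lower in 0, with a median log2 fold change of 0.49. The fitted change was above 0 for 17 of the 22. H2-K1 stood at 2759, 3054 and 2658 CPM against 1332, 1309, 1297 and 1391 CPM (log2 fold change 1.08 ± 0.08, adjusted p = 0.00130), and H2-D1 at 2618, 2418 and 2341 CPM against 1200.4, 1168, 1151 and 1163 CPM (log2 fold change 1.07 ± 0.08, adjusted p = 0.00117). B2m, the shared light chain, stood at 1505, 1526 and 1702 CPM against 949, 874, 910.3 and 894 CPM (log2 fold change 0.80 ± 0.08, adjusted p = 0.00427). Every AML1-ETO value of these 3 genes was above every control value. H2-Q4, a non-classical heavy chain, stood at 325, 425 and 418 CPM against 146, 141, 121 and 133 CPM, and the class I transactivator Nlrc5 at 164, 141 and 124 CPM against 67.8, 66.5, 50.4 and 74.9 CPM (log2 fold changes 1.53 ± 0.12 (adjusted p = 0.00138) and 1.14 ± 0.16 (adjusted p = 0.00999)). H2 class I genes are near-identical in sequence, so reads may be split between them in a way the counting does not record. Proteasome subunits of the pathway did not pass the test, among them Psmb8 at 259, 201 and 206 CPM against 224, 195, 244 and 184 CPM (adjusted p = 0.822). 7 of these 11 calls held whichever library was left out, and the rest ended without control replicates 1, 2, 3 or 4 (adjusted p up to 0.0827).

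NF-kB letters (GGAANNCCC, both strands) were in the promoters of 5 of the 10 higher class I genes with a listed promoter and of 5 of the 20 tested ones, namely H2-K1, H2-D1, H2-Q4, H2-Q6 and H2-Q7, against 7.47% of all tested promoters. These genes are copies of each other and their promoters are not independent. Both classical heavy chains are shown, with the match, on the other strand, in capitals (GGGNNTTCC).
H2-K1, chr17:34000298-34000597, minus strand: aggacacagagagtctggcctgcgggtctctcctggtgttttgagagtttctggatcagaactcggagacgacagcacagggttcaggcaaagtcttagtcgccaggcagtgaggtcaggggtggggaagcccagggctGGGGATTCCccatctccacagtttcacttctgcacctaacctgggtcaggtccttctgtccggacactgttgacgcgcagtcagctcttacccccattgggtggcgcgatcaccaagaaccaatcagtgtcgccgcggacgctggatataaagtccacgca
H2-D1, chr17:35262844-35263143, plus strand: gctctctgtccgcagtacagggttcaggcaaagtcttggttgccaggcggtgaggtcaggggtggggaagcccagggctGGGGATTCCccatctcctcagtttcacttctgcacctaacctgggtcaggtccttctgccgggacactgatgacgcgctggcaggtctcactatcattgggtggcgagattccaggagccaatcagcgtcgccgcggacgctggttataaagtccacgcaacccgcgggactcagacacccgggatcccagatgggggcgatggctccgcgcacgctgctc
The match begins 111 bases before the start in H2-K1 and 171 in H2-D1.

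MHC class II genes, which macrophages, dendritic cells and B cells use, followed AML1-ETO replicate 1. Of 13 tested, 3 were higher (Cd74, H2-Aa and H2-Eb1) and 0 lower (median log2 fold change 1.67). Cd74, the invariant chain, stood at 1126, 55.6 and 173 CPM against 15.8, 13.8, 5.73 and 3.13 CPM (log2 fold change 5.55 ± 1.06, adjusted p = 0.0228), and H2-Aa at 244, 16.8 and 44.5 CPM against 7.09, 5.74, 2.93 and 3.58 CPM (log2 fold change 4.39 ± 0.86, adjusted p = 0.0235). The macrophage genes C1qb and Mrc1 were high in the same library: C1qb stood at 194, 4.13 and 21.4 CPM against 1.39, 0.518, 0.561 and 0 CPM, and Mrc1 at 100.2, 8.52 and 9.13 CPM against 0.565, 1.81, 2.37 and 1.68 CPM. Their part in the class II values was not tested. None of these 3 calls held whichever library was left out, and they ended without control replicates 1, 2, 3 or 4 (adjusted p up to 0.101).

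Immediate early genes, transcribed within minutes of a stimulus, held the most higher genes of the 38 lists. Of 39 tested, 25 were higher and 1, Zfp36l2, lower; the median log2 fold change was 1.40. Atf3, a stress-induced AP-1 partner, stood at 149, 154 and 183 CPM against 18.9, 26.4, 15.3 and 10.003 CPM (log2 fold change 3.20 ± 0.29, adjusted p = 0.00287). Fosb stood at 1006, 1495 and 1911 CPM against 252, 343, 171 and 133 CPM (log2 fold change 2.71 ± 0.34, adjusted p = 0.00701), and Fos at 618, 1079 and 1306 CPM against 432, 519, 459 and 365 CPM (log2 fold change 1.17 ± 0.24, adjusted p = 0.0250). Jun was already abundant in control and stood at 2146, 4088 and 4219 CPM against 1547, 2024, 1447 and 1111 CPM (log2 fold change 1.19 ± 0.27, adjusted p = 0.0318). Csrnp1, Ppp1r15a and Ier5 stood at 98.8, 114 and 115 CPM against 43.3, 52.5, 42.1 and 41.6 CPM, at 269, 249.7 and 347 CPM against 106, 129.6, 101 and 91.4 CPM and at 153, 129 and 137 CPM against 39.4, 48.0, 29.5 and 24.4 CPM. Egr1 stood at 307, 296 and 361 CPM against 72.4, 192, 78.7 and 49.7 CPM, with control replicate 2 above the other controls (log2 fold change 1.71 ± 0.41, adjusted p = 0.0387). Zfp36l2, an RNA-decay factor, stood at 715, 669.97 and 809.97 CPM against 987, 1260.5, 1097 and 1224 CPM (log2 fold change -0.64 ± 0.12, adjusted p = 0.0206). 11 of these 26 calls held whichever library was left out, and the rest ended without control replicates 1, 2, 3 or 4 or AML1-ETO replicate 3 (adjusted p up to 0.139). The time from marrow to lysis is not given in the labels, and its part in these transient transcripts was not tested.

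NF-kB subunits and the inhibitors they induce moved the same way, with 13 of 22 tested higher and 0 lower (median log2 fold change 0.94). Tnfaip3 (A20), which shuts NF-kB signalling off, stood at 844, 901 and 1033 CPM against 208, 261, 135 and 98.9 CPM (log2 fold change 2.40 ± 0.31, adjusted p = 0.00701). Nfkbiz, Nfkbid and Nfkb2 stood at 307, 341 and 185 CPM against 78.9, 109.98, 69.6 and 51.3 CPM, at 115, 64.0 and 83.2 CPM against 43.0, 46.5, 37.0 and 39.2 CPM and at 113, 73.5 and 78.2 CPM against 41.9, 44.1, 37.7 and 38.2 CPM. All AML1-ETO values of these 4 genes were above all control values. Nfkbia stood at 756, 358 and 633 CPM against 275, 315, 204 and 125 CPM (log2 fold change 1.34 ± 0.34, adjusted p = 0.0470), and Nfkb1 overlapped, at 251, 208 and 235 CPM against 210.1, 232, 216 and 235 CPM. 1 of these 13 calls held whichever library was left out, and the rest ended without control replicates 1, 2, 3 or 4 or AML1-ETO replicates 1 or 3 (adjusted p up to 0.158). NF-kB letters were in 4 of the 11 listed promoters of the higher members and 7 of the 18 of the tested members. Over all genes the share was 7.47%.

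Among 25 cytokine and chemokine genes tested, 10 were higher and 1 lower (median log2 fold change 1.62). Cxcl10, a chemokine induced by interferon, was even across AML1-ETO libraries and stood at 51.3, 45.5 and 50.7 CPM against 9.35, 8.28, 7.11 and 3.24 CPM (log2 fold change 2.81 ± 0.33, adjusted p = 0.00674). Cxcl9 and Cxcl2 were highest in AML1-ETO replicate 1, at 40.8, 16.7 and 4.48 CPM against 0.154, 0.104, 0.249 and 0.894 CPM and at 112, 44.4 and 26.4 CPM against 6.63, 7.61, 2.62 and 0.726 CPM. Tnf stood at 51.7, 24.1 and 57.0 CPM against 15.2, 15.4, 9.35 and 5.03 CPM (log2 fold change 1.97 ± 0.44, adjusted p = 0.0304), and Il1b at 51.8, 0 and 6.63 CPM against 1.39, 0.155, 0.249 and 1.17 CPM, with no count in AML1-ETO replicate 2 and no call (adjusted p = 0.122). Ccl7 stood at 5.55, 1.97 and 20 CPM in AML1-ETO against 4 counts in control replicate 1 and 0 in the other control libraries. Ccl9 was the lower gene, at 137, 106 and 132 CPM against 190.4, 211, 205 and 177 CPM (log2 fold change -0.64 ± 0.12, adjusted p = 0.0217). 1 of these 11 calls held whichever library was left out, and the rest ended without control replicates 1, 2, 3 or 4 or AML1-ETO replicates 1, 2 or 3 (adjusted p up to 0.160).

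Innate sensors were mixed, with 7 of 33 tested higher and 2 lower (median log2 fold change 0.50). Cd14, a co-receptor for lipopolysaccharide also used as a monocyte marker, stood at 70.3, 95.4 and 89.4 CPM against 21.998, 22.8, 17.4 and 19.6 CPM (log2 fold change 2.06 ± 0.16, adjusted p = 0.00130). Nod1, a sensor of bacterial cell wall, stood at 80.4, 56.9 and 64.2 CPM against 26.7, 28.6, 21.9 and 28.3 CPM, and the inflammatory caspase Casp4 at 55.5, 49.99 and 40.8 CPM against 22.5, 15.9, 13.3 and 16.5 CPM. Mb21d1, which encodes the DNA sensor cGAS, was lower, at 41.7, 40.6 and 42.9 CPM against 70.3, 81.1, 70.4 and 72.6 CPM (log2 fold change -0.82 ± 0.11, adjusted p = 0.00985), as was the inflammasome adaptor Pycard, at 17.7, 19.2 and 14.6 CPM against 28.1, 30.2, 37.0 and 24.3 CPM (log2 fold change -0.80 ± 0.21, adjusted p = 0.0495). 2 of these 9 calls held whichever library was left out, and the rest ended without control replicates 1, 2, 3 or 4 or AML1-ETO replicates 1 or 3 (adjusted p up to 0.165).

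Of 26 genes of mast cells, basophils and eosinophils tested, most of them for granule proteins or receptors, 15 were higher and 1, Kit, lower, with a median log2 fold change of 2.18. Cma1, the mast cell chymase, stood at 104, 93.9 and 38.6 CPM against 0.206, 0.569, 0.249 and 0.503 CPM (log2 fold change 7.66 ± 0.49, adjusted p = 0.00117). Cpa3, a carboxypeptidase of mast cell granules, stood at 440.03, 1210.4 and 745 CPM against 97.0, 119, 95.4 and 83.1 CPM, highest in replicate 2 (log2 fold change 3.02 ± 0.31, adjusted p = 0.00427). Mcpt8, a basophil protease, stood at 391.8, 574 and 482 CPM against 75.6, 73.5, 64.5 and 41.8 CPM (log2 fold change 2.92 ± 0.22, adjusted p = 0.00130). Tpsb2, a tryptase, had no count in control and 27.3, 27.8 and 11.6 CPM in AML1-ETO, at least 539-fold higher. The eosinophil granule protein Prg2 was abundant in both groups, at 4271, 5525 and 2007 CPM against 1656, 848, 858 and 612 CPM (log2 fold change 1.99 ± 0.41, adjusted p = 0.0258). The receptor gene Fcer1a was uneven, at 52.1, 5.15 and 116 CPM against 15.3, 10.1, 11.8 and 8.997 CPM, and did not pass the test (adjusted p = 0.108), nor did Gata2, at 154, 171 and 469.9 CPM against 105, 170.1, 132 and 105 CPM (adjusted p = 0.141). 5 of these 16 calls held whichever library was left out, and the rest ended without control replicates 1, 2, 3 or 4 or AML1-ETO replicate 3 (adjusted p up to 0.119). Mast cell proteases are close copies, and reads may be shared between them.

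RUNX letters (TGTGGT, both strands) were in 9 of the 24 listed promoters of this list's tested members, and in 5 of the 13 of its higher members, against 12.9% over all tested genes. The list was not marked by RUNX letters alone. Interferon letters were in 6 of the 24 and in 4 of the 13, Cma1 among them, against 7.37% over all tested genes. Over all calls the share with RUNX letters was 12.2% for genes higher and 15.3% for genes lower. The promoters of Cpa3, Mcpt8 and Cma1, proteases found with the letters, are shown, with the RUNX letters in capitals. On the other strand they read ACCACA. The tryptase gene Tpsb2 was not among the members found with them.
Cpa3, chr3:20242132-20242431, minus strand: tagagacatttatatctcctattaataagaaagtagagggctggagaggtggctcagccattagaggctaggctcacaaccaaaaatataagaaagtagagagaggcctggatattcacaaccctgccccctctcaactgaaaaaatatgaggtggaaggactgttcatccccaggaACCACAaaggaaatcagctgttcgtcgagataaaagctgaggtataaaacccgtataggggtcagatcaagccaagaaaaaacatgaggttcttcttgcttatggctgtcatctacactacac
Mcpt8, chr14:56085148-56085447, minus strand: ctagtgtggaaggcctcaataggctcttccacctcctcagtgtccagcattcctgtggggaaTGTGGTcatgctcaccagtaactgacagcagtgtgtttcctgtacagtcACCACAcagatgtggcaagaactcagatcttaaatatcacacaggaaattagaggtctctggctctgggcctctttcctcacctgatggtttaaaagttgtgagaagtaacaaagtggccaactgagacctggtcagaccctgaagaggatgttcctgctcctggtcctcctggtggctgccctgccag
Cma1, chr14:55944626-55944925, minus strand: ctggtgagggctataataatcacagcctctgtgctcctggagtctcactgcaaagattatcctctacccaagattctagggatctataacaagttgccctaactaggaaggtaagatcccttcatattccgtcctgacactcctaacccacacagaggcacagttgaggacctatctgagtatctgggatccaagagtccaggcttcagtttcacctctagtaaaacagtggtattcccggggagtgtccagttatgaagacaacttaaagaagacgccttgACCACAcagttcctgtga
The letters begin 73 bases before the start in Cpa3, 188 and 139 before it in Mcpt8, and at base 33 after it in Cma1. AP-1 letters (TGANTCA) were in 7.01% of the promoters of genes higher and 3.76% of genes lower, against 4.92%, and interferon letters in 11.2% and 5.11%. In the immediate early list, AP-1 letters were in 1 of the 23 listed promoters of the higher members (4.35%). These shares are descriptions without a test.

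**Figure D4:**
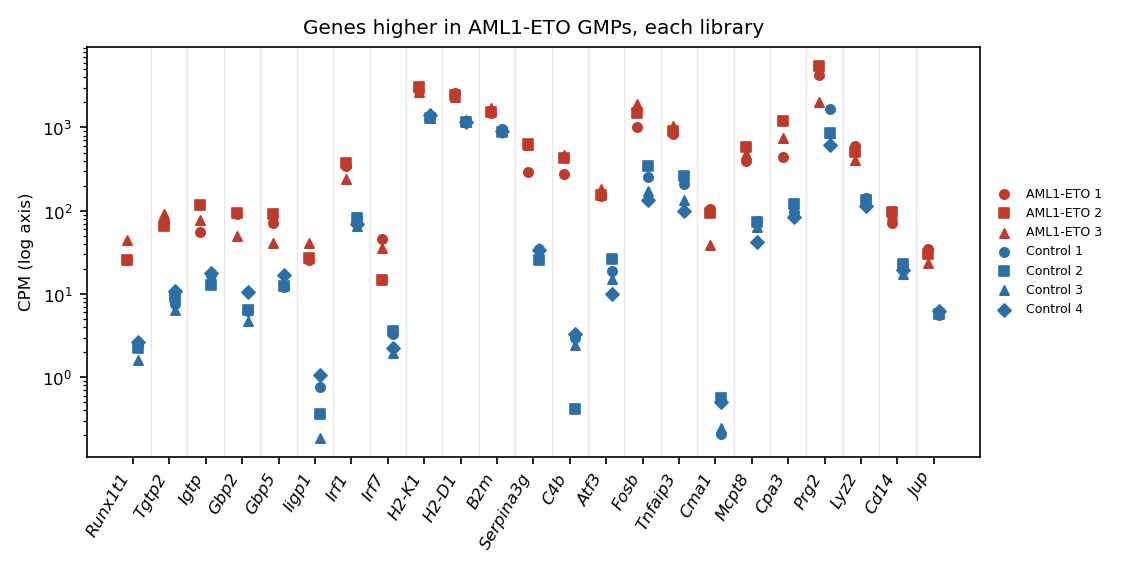
CPM (log axis) of 23 genes in each GMP library, AML1-ETO in red and control in blue, with the shape giving the replicate. Every AML1-ETO value lies above every control value for each gene drawn; the gap is narrowest for Prg2 and B2m and widest for Cma1 and C4b.

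Of 34 genes that define GMPs tested, 4 were higher (11.8%, against 5.47% over all genes) and 2 lower (5.88%, against 3.96%). The median log2 fold change was -0.06. Elane, neutrophil elastase, was lower, at 3523, 2679.8 and 3026 CPM against 5206, 4275, 4979.6 and 5251 CPM (log2 fold change -0.68 ± 0.12, adjusted p = 0.0202), and so was Kit, the stem cell factor receptor, at 268, 203 and 221 CPM against 320.2, 334, 302 and 349 CPM (log2 fold change -0.50 ± 0.12, adjusted p = 0.0342). Prtn3, a neighbouring primary granule protease, stood at 3264, 2558 and 2513 CPM against 4021, 3116, 4009 and 3627 CPM, and Ctsg at 1745, 3893 and 1924 CPM against 2216, 1744, 2113 and 2107 CPM, neither past the test (adjusted p = 0.103 and 0.552). Lyz2, lysozyme, which rises as myeloid cells mature, was higher, at 604, 513 and 407 CPM against 142, 134, 140.3 and 115 CPM (log2 fold change 1.94 ± 0.15, adjusted p = 0.00130). Csf2rb, the shared receptor chain for GM-CSF, IL-3 and IL-5, stood at 310.01, 696 and 278 CPM against 165, 158, 167 and 173 CPM (log2 fold change 1.37 ± 0.29, adjusted p = 0.0286). The receptors Csf1r and Csf3r stood at 336, 128 and 95.6 CPM against 171, 211, 211 and 179 CPM and at 278, 529 and 233 CPM against 233, 239, 247 and 302 CPM, overlapping between groups, with no call. Fcgr3 and Cd34, both surface markers of GMPs, stood at 255, 252 and 190.3 CPM against 169, 164, 167 and 194 CPM and at 245, 412 and 245 CPM against 327, 389, 401 and 363 CPM (adjusted p = 0.0805 and 0.406). 1 of these 6 calls held whichever library was left out, and the rest ended without control replicates 1, 2, 3 or 4 or AML1-ETO replicates 1, 2 or 3 (adjusted p up to 0.147).

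Genes of later neutrophil granules were higher in 11 of 22 tested and lower in 0 (median log2 fold change 2.32). Cd177 and Lcn2 stood at 122, 63.4 and 67.8 CPM against 6.32, 3.47, 6.30 and 5.31 CPM (log2 fold change 3.98 ± 0.31, adjusted p = 0.00130) and at 284, 237 and 93.5 CPM against 17.9, 9.42, 18.0 and 19.6 CPM (log2 fold change 3.66 ± 0.40, adjusted p = 0.00555). The calprotectin genes were highest in AML1-ETO replicate 1: S100a8 stood at 562, 219 and 187 CPM against 42.7, 27.3, 25.7 and 35.7 CPM, and S100a9 at 841, 121 and 113 CPM against 9.87, 6.42, 8.23 and 8.05 CPM (log2 fold changes 3.30 ± 0.40 (adjusted p = 0.00694) and 5.46 ± 0.77 (adjusted p = 0.0102)). Ltf, lactoferrin, stood at 518, 0 and 75.2 CPM against 0.257, 2.48, 2.99 and 1.40 CPM and was not called (adjusted p = 0.0506). AML1-ETO replicate 2 thus carried Cd177, Lcn2 and S100a8 with no Ltf count. 3 of these 11 calls held whichever library was left out, and the rest ended without control replicates 1, 2, 3 or 4 (adjusted p up to 0.118).

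Lists of cells outside the granulocyte-monocyte line also held many rises. The erythroid and megakaryocyte genes named here were highest in single libraries, while Eng and Col4a2 were more even across AML1-ETO libraries. Of 26 erythroid genes tested, 9 were higher and 0 lower (median log2 fold change 3.50). The globins Hba-a1 and Hbb-bs, each with a close copy, were among the 12 largest rises: Hba-a1 stood at 2064, 24.6 and 494 CPM against 0.257, 0.0518, 0 and 0.391 CPM, and Hbb-bs at 2065, 22.8 and 533 CPM against 0, 0.155, 0 and 0.112 CPM (log2 fold changes 12.18 ± 1.71 (adjusted p = 0.0101) and 13.49 ± 1.87 (adjusted p = 0.00944)). Globins took 0.452%, 0.00539% and 0.115% of the counts in AML1-ETO libraries. Of 21 megakaryocyte genes tested, 12 were higher and 0 lower (median log2 fold change 3.74). Treml1 stood at 17.7, 11.4 and 355 CPM against 0.360, 0.518, 0.686 and 0.838 CPM (log2 fold change 7.73 ± 1.38, adjusted p = 0.0193), and Vwf, which was not called, at 11.9, 15.2 and 282 CPM against 1.75, 8.64, 7.17 and 6.15 CPM (adjusted p = 0.0615). Plek, a protein kinase C substrate of platelets, stood at 170.2, 275 and 711 CPM against 56.2, 82.3, 49.6 and 48.7 CPM (log2 fold change 2.70 ± 0.46, adjusted p = 0.0171). Of 10 endothelial or stromal genes tested, 8 were higher, among them Eng, at 104, 144 and 152 CPM against 42.7, 49.4, 45.5 and 47.6 CPM (log2 fold change 1.52 ± 0.15, adjusted p = 0.00308), and the basement membrane collagen Col4a2, at 20.3, 20.1 and 30.5 CPM against 2.06, 2.64, 1.25 and 2.12 CPM (log2 fold change 3.54 ± 0.34, adjusted p = 0.00308). The median log2 fold change of the 10 tested was 3.83. The defining genes Cdh5, Col1a1 and Cxcl12 were at 0 in AML1-ETO replicate 2. They summed to 49.7 CPM in replicate 1 and 2.93 CPM in replicate 3, against at most 0.224 CPM in control. Their part in these rises was not tested. Of 37 LT-HSC genes tested, 9 were higher and 1 lower (median log2 fold change 1.05). Esam, a surface protein of stem cells and endothelium, stood at 23.04, 10.6 and 141 CPM against 0.206, 0.155, 0.374 and 0.279 CPM (log2 fold change 7.82 ± 1.04, adjusted p = 0.00828). Hlf, a stem cell transcription factor, overlapped between the groups at 12.4, 6.11 and 10.6 CPM against 7.61, 9.42, 6.79 and 9.16 CPM (adjusted p = 0.742). None of the erythroid or megakaryocyte calls held in all 7 fits without 1 library (adjusted p up to 0.143 and 0.160, each ended by leaving out a control library), whereas Eng, Col4a2 and Esam did.

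To see what held without the AML1-ETO libraries that carry both high Xist and Y-linked reads, AML1-ETO replicates 1 and 3 were left out together. Control replicate 4, with Xist at 28.7 CPM, was kept. This alternative was added after the data were seen, and in it the lone AML1-ETO library is assumed to vary like the controls. AML1-ETO replicate 2 alone gave 13 higher interferon-induced GTPases, 12 MHC class I genes, 30 immediate early genes and 19 genes of mast cells, basophils and eosinophils. It gave 21 higher type I interferon genes, 13 neutrophil granule genes, 9 erythroid genes and 15 megakaryocyte genes, and 28 lower DNA replication genes. Over all genes that fit called 2377 higher and 3108 lower, so these counts stand against a larger background (15.1% and 19.7% of 15793 tested).

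Genes high in a single library were counted too. Genes at 50 CPM or more and at least 8-fold above each other library numbered 13 in AML1-ETO replicate 1, 0 in replicate 2 and 41 in replicate 3, and 0 in each control. In replicate 1 they included the complement genes C1qa, C1qb and C1qc, the mannose receptor Mrc1, the neutrophil genes Retnlg and Mmp9, and the red cell anion exchanger Slc4a1 (212 CPM). In replicate 3 they included Treml1 (355 CPM), Vwf (282 CPM) and Itgb3 (269 CPM), all genes of megakaryocytes and platelets. This rule was chosen after the data were seen.

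Of 69 blood transcription factor genes tested, 16 were higher and 2 lower (median log2 fold change 0.58). Myc fell: it stood at 143, 258 and 198 CPM against 388, 417, 443 and 472 CPM (log2 fold change -1.11 ± 0.19, adjusted p = 0.0179). Mxd1, which competes with MYC for their common partner MAX, rose, at 184, 97.5 and 152 CPM against 30.02, 33.9, 20.8 and 27.4 CPM (log2 fold change 2.36 ± 0.24, adjusted p = 0.00426). Cbfb, the partner of RUNX1, was lower, at 152, 124 and 153 CPM against 194, 188, 221 and 211 CPM (log2 fold change -0.51 ± 0.11, adjusted p = 0.0301). Cebpa stood at 195, 73.5 and 203 CPM against 322, 335, 404 and 386 CPM, with every AML1-ETO library under every control library and replicate 2 the lowest, and just missed the threshold (log2 fold change -1.20 ± 0.32, adjusted p = 0.0555). Cebpb, by contrast, was higher, at 153, 90.2 and 78.0 CPM against 43.7, 44.2, 62.1 and 46.9 CPM (log2 fold change 1.12 ± 0.25, adjusted p = 0.0295), and Cebpe stood at 119, 258 and 97.3 CPM against 114, 92.0, 89.8 and 103 CPM without a call (adjusted p = 0.235). Spi1, which encodes PU.1, stood at 396, 235 and 154 CPM against 279, 270.2, 279.8 and 274 CPM, Gfi1 at 158, 363 and 158 CPM against 203, 181, 198 and 237 CPM and Irf8, a monocyte-lineage factor, at 495, 25.0 and 204 CPM against 393, 439, 499 and 405 CPM; the order of the AML1-ETO libraries differed from gene to gene and none was called. Id1, an inhibitor of E proteins, stood at 30.8, 50.05 and 27.8 CPM against 7.20, 7.14, 8.54 and 4.02 CPM (log2 fold change 2.43 ± 0.32, adjusted p = 0.00844). 3 of these 18 calls held whichever library was left out, and the rest ended without control replicates 1, 2, 3 or 4 or AML1-ETO replicates 1 or 3 (adjusted p up to 0.158).

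In the list of cytokine receptors and JAK-STAT genes, 13 of 50 tested were higher and 1 lower (median log2 fold change 0.45). Csf2rb2, the IL-3 receptor beta chain of mice, stood at 68.6, 127 and 104 CPM against 21.5, 20.6, 19.3 and 19.7 CPM (log2 fold change 2.30 ± 0.20, adjusted p = 0.00231), and it is a close copy of Csf2rb. The feedback inhibitor Socs3 stood at 28.0, 24.4 and 95.9 CPM against 2.47, 1.45, 0.873 and 1.62 CPM (log2 fold change 4.93 ± 0.59, adjusted p = 0.00682), and the STAT-induced kinase Pim1 at 462, 419 and 393 CPM against 203, 216, 151 and 146 CPM (log2 fold change 1.25 ± 0.16, adjusted p = 0.00701). 4 of these 14 calls held whichever library was left out, and the rest ended without control replicates 1, 2, 3 or 4 or AML1-ETO replicates 1 or 3 (adjusted p up to 0.152). Of 15 genes tested from a list linked to t(8;21) leukaemia, 4 were higher (Jup, Id1, Egr1 and Pim1) and 1, Kit, lower (median log2 fold change 0.06). Jup, plakoglobin, stood at 35.2, 29.95 and 23.5 CPM against 5.65, 5.69, 5.92 and 6.26 CPM (log2 fold change 2.33 ± 0.22, adjusted p = 0.00293). Pou4f1, a factor marking human t(8;21) leukaemia, had too few counts to be tested, at 2.43, 0 and 0 CPM against 1.44, 0.259, 0 and 0.335 CPM.

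DNA replication was the group with the most falls. Of 42 genes tested, 11 were lower and 0 higher, against 3.96% lower over all genes, and the median log2 fold change was -0.34. Mcm2 and Mcm6, subunits of the replicative helicase, stood at 296, 304 and 311 CPM against 462, 467, 511 and 471 CPM (log2 fold change -0.65 ± 0.08, adjusted p = 0.00700) and at 488, 496 and 485 CPM against 669, 670.3, 692 and 735 CPM (log2 fold change -0.50 ± 0.08, adjusted p = 0.0131). Pola1, a DNA polymerase subunit, stood at 69.4, 88.4 and 77.0 CPM against 137, 126, 121 and 129.9 CPM (log2 fold change -0.72 ± 0.11, adjusted p = 0.0130), and Fen1, a flap endonuclease with a larger fold change than those 3, at 6.51, 4.01 and 6.27 CPM against 16.9, 16.4, 17.4 and 16.3 CPM (log2 fold change -1.58 ± 0.27, adjusted p = 0.0176). Every AML1-ETO library was under every control library for 22 of the 42, against 15.3% of all genes tested. All 554 genes called lower were placed in this way, so for the 11 called it adds nothing to the call. 1 of these 11 calls held whichever library was left out, and the rest ended without control replicates 1, 2, 3 or 4 or AML1-ETO replicate 3 (adjusted p up to 0.157). Of 36 genes of G2 and mitosis tested, 2, Cdc20 and Ube2c, were higher (5.56%, near the 5.47% over all genes) and 0 lower. Mki67, a marker of cycling cells, stood at 588, 463 and 457 CPM against 504, 554, 450 and 583 CPM (adjusted p = 0.849). The CDK inhibitor Cdkn1b was higher, at 93.8, 97.7 and 119.6 CPM against 61.6, 80.5, 59.97 and 58.01 CPM (log2 fold change 0.67 ± 0.15, adjusted p = 0.0319), and Cdkn1a stood at 55.8, 76.5 and 67.0 CPM against 38.5, 49.1, 44.3 and 27.1 CPM (adjusted p = 0.0728).

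The 12 largest falls with a mean of at least 20 counts all had no count in any AML1-ETO library and were low in control. Xlr3b, an X-linked gene of a family of close copies, stood at 7.92, 9.16, 10.6 and 7.99 CPM in control, so it was at least 143-fold lower against a floor of 3 counts over the group. Nrg1, a growth factor, stood at 2.72, 3.36, 7.29 and 5.03 CPM in control, and Sdc1, syndecan 1, at 3.08, 2.59, 4.99 and 3.8001 CPM (at least 73.9-fold and 58.01-fold lower). Bcat1, a branched-chain amino acid transaminase, stood at 2.67, 0.776, 3.99 and 2.12 CPM in control. Of these, only Xlr3b was called in every fit without 1 library. Among abundant genes, the chaperones Hspd1 and Hsp90ab1 were lower, at 429, 437 and 388 CPM against 674, 568, 749 and 635 CPM (log2 fold change -0.65 ± 0.11, adjusted p = 0.0180) and at 3188, 3055 and 2792 CPM against 3896, 3706, 4091 and 3641 CPM (log2 fold change -0.35 ± 0.09, adjusted p = 0.0453), and the stress factor Ddit3 was higher, at 107, 134 and 79.9 CPM against 35.2, 38.7, 24.2 and 23.97 CPM (log2 fold change 1.81 ± 0.24, adjusted p = 0.00844). Of 69 ribosomal protein genes tested, 3 were lower (4.35%, near the share over all genes) and 0 higher, and all 69 had a fitted value below 0 (median log2 fold change -0.21).

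Fatty acid genes, the pathway named in the title of the series, were counted in lists of synthesis, oxidation, uptake and storage. Of 26 synthesis genes tested, 1 was higher and 1 lower (3.85% each, near the shares over all genes), and the median log2 fold change was -0.08. Acaca, acetyl-CoA carboxylase, the rate-limiting enzyme of fatty acid synthesis, was lower, at 26.9, 44.9 and 30.5 CPM against 64.5, 69.2, 64.2 and 74.9 CPM (log2 fold change -1.001 ± 0.19, adjusted p = 0.0228). Scd1, a fatty acid desaturase, was higher, most of all in AML1-ETO replicate 1, at 52.5, 10.2 and 12.7 CPM against 2.62, 0.569, 0.499 and 4.41 CPM (log2 fold change 3.62 ± 0.91, adjusted p = 0.0443). Fasn, fatty acid synthase, and Scd2 stood at 273, 306 and 148 CPM against 362, 369, 399 and 447 CPM and at 312, 274 and 248 CPM against 326, 365, 413 and 480.2 CPM; every AML1-ETO value was under every control value, and neither passed the test (adjusted p = 0.104 and 0.0734). Acly and Elovl6 overlapped, at 283, 367 and 351 CPM against 351, 332, 377 and 377 CPM and at 20.7, 40.6 and 35.5 CPM against 34.0, 29.7, 37.3 and 31.4 CPM. The calls of Acaca and Scd1 ended when single libraries were left out (adjusted p up to 0.0879 and 0.131).

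Of 35 fatty acid oxidation genes tested, 1 was higher, under the share over all genes, and 0 lower (median log2 fold change -0.07). Cpt1a, which carries fatty acids into mitochondria, stood at 144, 205 and 211 CPM against 141, 153, 125 and 115 CPM, and Acadm, a mitochondrial dehydrogenase, at 42.1, 68.6 and 63.6 CPM against 62.0, 65.6, 63.1 and 67.5 CPM (adjusted p = 0.104 and 0.661). Of 22 triglyceride and lipid droplet genes tested, 2 were higher (9.09%): Plin2, a lipid droplet coat protein, at 115, 183 and 132 CPM against 75.3, 78.9, 83.9 and 64.7 CPM (log2 fold change 0.92 ± 0.17, adjusted p = 0.0216), and Lpin2, a phosphatidate phosphatase, at 108, 99.5 and 77.9 CPM against 58.3, 64.5, 55.5 and 53.1 CPM (log2 fold change 0.72 ± 0.14, adjusted p = 0.0235). The median of that list was 0.27. Of 21 uptake and activation genes (median 0.25), 3 were higher (14.3%; Slc27a3, Hcar2 and Acsbg1) and 1, Ffar2, lower. Slc27a3, a fatty acid transport protein, stood at 18.8, 18.95 and 10.3 CPM against 5.19, 4.81, 4.30 and 5.76 CPM (log2 fold change 1.67 ± 0.32, adjusted p = 0.0228), and Ffar2, a receptor for short-chain fatty acids, at 13.5, 5.21 and 6.27 CPM against 31.4, 24.4, 27.3 and 32.2 CPM (log2 fold change -1.79 ± 0.35, adjusted p = 0.0238). Cd36, a fatty acid transporter, had too few counts to be tested and was highest in AML1-ETO replicate 1, at 15.8, 0 and 1.79 CPM against 0.565, 0, 0 and 0.0559 CPM. None of the calls in these lists held in all 7 fits without 1 library (adjusted p up to 0.0989).

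**Figure D5:**
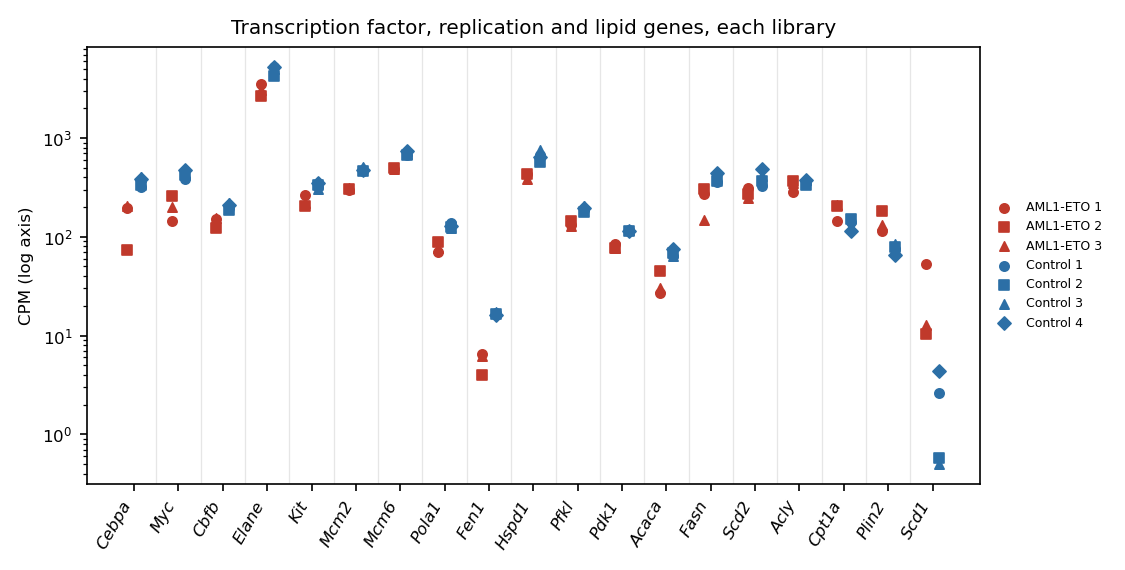
CPM (log axis) of 19 transcription factor, granule, replication, chaperone, glycolysis and lipid genes in each GMP library, AML1-ETO in red and control in blue, with the shape giving the replicate. Myc, Mcm2 and Acaca are under every control value in all 3 AML1-ETO libraries, Plin2 is above, and Acly and Cpt1a overlap.

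Of 32 cholesterol genes tested, 2 were higher (6.25%, near the share over all genes; Abcg1 and Mylip) and 0 lower (median log2 fold change -0.24). Of 29 eicosanoid genes tested, 5 were higher (17.2%) and 1 lower (median 0.51). Alox12, the platelet lipoxygenase, stood at 8.87, 14.8 and 138 CPM against 0.0514, 0, 0.249 and 0.0559 CPM, highest, like the platelet genes, in AML1-ETO replicate 3 (log2 fold change 9.22 ± 1.36, adjusted p = 0.0110). Hpgds, a prostaglandin synthase of mast cells, stood at 34.3, 4.96 and 18.8 CPM against 0.874, 0.828, 0.312 and 0.279 CPM (log2 fold change 5.05 ± 0.76, adjusted p = 0.0118). Alox5 and Alox5ap, the leukotriene pathway of myeloid cells, stood at 27.5, 12.2 and 47.5 CPM against 23.6, 31.4, 24.8 and 19.3 CPM and at 94.8, 96.2 and 117 CPM against 89.998, 85.1, 97.6 and 81.6 CPM and were not called. Of 31 glycolysis genes tested, 2 were higher (6.45%, near the share over all genes) and 4 lower (12.9%, against 3.96% over all genes), with a median of -0.06. The transporters Slc2a3 (glucose) and Slc16a3 (lactate) rose, at 85.6, 45.8 and 208 CPM against 17.6, 22.5, 22.2 and 22.1 CPM (log2 fold change 2.42 ± 0.44, adjusted p = 0.0208) and at 67.4, 59.8 and 42.7 CPM against 22.8, 18.7, 18.2 and 17.2 CPM (log2 fold change 1.56 ± 0.19, adjusted p = 0.00700). The enzymes Pfkl, Pgk1 and Pgam1 and the kinase Pdk1, which restrains pyruvate use, were lower, with Pfkl at 130.02, 145 and 128 CPM against 185, 177, 203 and 198 CPM (log2 fold change -0.50 ± 0.09, adjusted p = 0.0220) and Pdk1 at 84.1, 76.5 and 77.6 CPM against 116, 114, 116 and 115 CPM (log2 fold change -0.54 ± 0.09, adjusted p = 0.0159). Of 57 oxidative phosphorylation genes tested, 1, Ndufs1, was lower (1.75%, under the share over all genes) and 0 higher (median -0.17). Among these calls, only that of Slc16a3 held in all 7 fits without 1 library.

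Regulators of cell death on both sides of survival were higher. Of 14 BCL2 family genes tested, 5 were higher and 0 lower (median log2 fold change 0.04). The anti-apoptotic Mcl1 and Bcl2l1 stood at 586, 740.1 and 559 CPM against 272, 281, 252 and 239.9 CPM (log2 fold change 1.27 ± 0.12, adjusted p = 0.00299) and at 30.8, 41.7 and 61.1 CPM against 15.5, 16.0, 16.2 and 16.7 CPM (log2 fold change 1.47 ± 0.23, adjusted p = 0.0134). The pro-apoptotic Bbc3 and Bmf were higher too, at 53.2, 19.3 and 64.4 CPM against 11.9, 18.4, 11.7 and 8.55 CPM (log2 fold change 1.85 ± 0.42, adjusted p = 0.0321) and at 4.79, 4.01 and 8.66 CPM against 0.565, 0.414, 1.37 and 0.559 CPM (log2 fold change 2.99 ± 0.66, adjusted p = 0.0301), as was Pmaip1. 1 of these 5 calls held whichever library was left out, and the rest ended without control replicates 1, 2, 3 or 4 or AML1-ETO replicate 3 (adjusted p up to 0.144). Hmox1, haem oxygenase, stood at 424, 24.7 and 76.4 CPM against 3.96, 1.55, 4.05 and 1.56 CPM (log2 fold change 5.98 ± 0.98, adjusted p = 0.0159), highest in the library with the most globin and C1q transcripts.

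In the remaining lists, beside 5.47% higher and 3.96% lower over all genes, the calls were, for monocytes, macrophages and dendritic cells, 5 higher (19.2%) and 0 lower of 26 tested (median 1.16), for B and plasma cells, 1 higher (11.1%) and 1 lower of 9 tested (median 0.45) and for T and NK cells, 2 higher (20%) and 0 lower of 10 tested (median 2.78). The calls were also, for NADPH oxidase and antioxidant genes, 2 higher (7.69%) and 0 lower of 26 tested (median 0.17), for adhesion and homing, 5 higher (17.9%) and 0 lower of 28 tested (median 0.31) and for heat shock and the unfolded protein response, 2 higher (7.41%) and 2 lower of 27 tested (median -0.02). For CDK inhibitors 1 was higher and 1, Rbl1, lower of 9 tested (median 0.58), G2 and mitosis had a median of 0.17, and of 5 sex-linked genes 0 were called (median -0.53).

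The same contrast in LT-HSCs was used to see where an effect differed between the cell types, by the interaction term of a fit over all 14 libraries. The difference was called for 6.34% of 16116 genes tested, and for 16 of 35 called GMP genes looked at. These 35 were chosen by their GMP calls, so their share cannot be set against that over all genes. Log2 fold changes in that fit were 5.68 in GMPs and -0.66 in LT-HSCs for Iigp1 (adjusted p = 0.00102), and 3.46 in GMPs and 0.65 in LT-HSCs for Gbp2 (adjusted p = 0.0212). Serpina3g rose in both, by 4.04 in GMPs and 1.75 in LT-HSCs (adjusted p = 0.0240). Larger fold changes in GMPs did not mean higher levels there. In control, mean Gbp2 was 62.3 CPM in LT-HSCs and 7.27 CPM in GMPs, and mean Serpina3g 270 and 32.3 CPM. In AML1-ETO, mean Gbp2 was 97.9 CPM in LT-HSCs and 80.1 CPM in GMPs, and mean Serpina3g 910 and 532 CPM. Cpa3 rose more in LT-HSCs, with 2.998 in GMPs and 8.73 in LT-HSCs (adjusted p = 0.000616). The values for Myc were -1.12 in GMPs and -0.09 in LT-HSCs (adjusted p = 0.0373). For Runx1t1 the values were 3.797 in GMPs and 3.91 in LT-HSCs, and for H2-D1 1.05 in GMPs and 0.99 in LT-HSCs; neither difference was called (adjusted p = 0.99995 and 0.951).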

How the data were processed

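RNA from GMPs of 3 AML1-ETO and 4 control samples was sequenced in bulk, with RNeasy Plus Micro extraction and SMART-Seq v4 and SMARTer stranded kits named per the labels' protocols without saying which kit made which library. The authors deposited raw read counts per gene symbol. HISAT2 2.0.5, featureCounts 1.5.0-p3 and mm10 are named in the submitters' processing notes. Not given in the sources used here were the annotation release and the strand setting of the counting, and reads of overlapping or antisense genes therefore cannot be told apart. Total counts ran from 15620007 to 19403864. Lines carrying a date in place of a gene symbol (27 lines, 0.116% of counts) stayed in the library sizes and tests and are not named, and each line of a repeated symbol was tested on its own.

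Counts were filtered with edgeR's filterByExpr, scaled by TMM and tested with edgeR 4.0.16 (quasi-likelihood, 7 libraries, Benjamini-Hochberg adjustment over 13981 genes) in R 4.3.3. DESeq2 1.42.0 was an alternative, with other scalings and filters, all 14 libraries in 1 fit, a replicate block and each library left out. The fit was tested on simulated data. Single measures per library were compared by exact permutation. Principal components, correlations and spreads use log2 CPM of 12735 genes. Coordinates come from the GENCODE annotation of mm10, and promoters from RefSeq, GRCm38.p6, using the first listed start of a gene.

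The 38 gene lists (1146 genes, 992 tested) and the genes named were chosen with earlier results of these data known. Genes were named by rule: a list of key genes, the 12 largest rises and falls (called, mean count 20 or more, groups apart), the 8 smallest p, and up to 4 called members per list and direction. Xist, Ddx3y, Camp, Gbp4, Irgm1, Gbp5, Gbp3, Ifi47, Ifit1, Mx1, Nlrc5, Psmb8, C1qb, Fosb, Nfkb1, Prg2, Treml1 and Vwf were chosen after their values were seen, as were the library-specific genes. Some genes are not reported here.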

Additional observations from a re-analysis of the deposited data

Results flagged for a closer look

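A single control library, not the same for every gene, was above the other 3 by a gap that was wide against the range of the 4 controls, though in some cases small in CPM, for Il7r (0.725 CPM), Xist (28.7 CPM), Irgm1 (29.5 CPM), Isg15 (2.78 CPM), Csrnp1 (52.5 CPM), Ccl7 (0.206 CPM), Cebpb (62.1 CPM), Cdkn1b (80.5 CPM), Cd36 (0.565 CPM) and Bmf (1.37 CPM). In the same sense a single control library was below the other 3 for Lcn2 (9.42 CPM) and Slc2a3 (17.6 CPM), and 1 control library had 0% of its counts in globin genes, below the other 3. These are 12 of 151 genes and 1 of 5 library measures looked at, and chance marks about 1 in 20 groups of this size. The highest control value of Xist was in replicate 4.

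The AML1-ETO effect differed between GMPs and LT-HSCs, by an interaction test over all 14 libraries in edgeR's quasi-likelihood fit, for 16 of the 35 called GMP genes looked at. The log2 difference, GMP minus LT-HSC, was above 0 for Elane (10.87, adjusted p = 0.0260), S100a8 (5.19, adjusted p = 0.0475), Hba-a1 (10.62, adjusted p = 0.00915), Scd1 (5.84, adjusted p = 0.0315), Plin2 (1.45, adjusted p = 0.0206), Irf7 (2.44, adjusted p = 0.0450), Carhsp1 (1.76, adjusted p = 0.0134), Serpina3g (2.29, adjusted p = 0.0240), Gbp2 (2.81, adjusted p = 0.0212), Iigp1 (6.34, adjusted p = 0.00102), Gbp4 (13.55, adjusted p = 0.000335) and Gbp5 (2.55, adjusted p = 0.0488). It was below 0 for Myc (-1.04, adjusted p = 0.0373), Kit (-1.22, adjusted p = 0.00727), Cpa3 (-5.73, adjusted p = 0.000616) and Lilr4b (-3.39, adjusted p = 0.0141). With DESeq2 the call of S100a8 was lost (adjusted p = 0.0683). In the edgeR fit of all 14 libraries the GMP effect itself was not called for Elane, Kit, S100a8, Scd1 and Plin2. Their adjusted p-values for it were 0.814, 0.110, 0.0905, 0.0822 and 0.0558. Elane had a mean of 3164 CPM in AML1-ETO and 5131 CPM in control GMPs, and 0 CPM in AML1-ETO and 23.6 CPM in control LT-HSCs, so the fitted difference depends on the prior count and is no measured size. The same holds for Gbp4, whose mean was 6.34 CPM in AML1-ETO and 0 CPM in control GMPs and 3.92 and 58.0 CPM in LT-HSCs. Iigp1 was higher in control LT-HSCs (80.1 CPM) than in AML1-ETO GMPs (32.3 CPM). Irf7 and Gbp5 had higher means in control LT-HSCs (34.3 and 42.2 CPM) than in control GMPs (2.87 and 14.3 CPM). S100a8 and Plin2 had lower means in control LT-HSCs (9.03 and 41.0 CPM) than in control GMPs (34.2 and 78.8 CPM).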

How the results depend on the processing

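The number of calls depended on the processing more than their direction did. Higher and lower genes numbered 765 and 554 and ran from 116 to 1550 and from 12 to 1964 when 1 library was left out. List members called numbered 220 higher and 34 lower and ran from 64 to 351 and from 1 to 84. The DESeq2 Wald test gave 1371 higher and 938 lower genes and 62 lower list members. A fit of all 14 libraries gave 394 and 64 genes and 136 and 2 list members. No low count filter gave 260 lower genes and a stricter filter 287. With AML1-ETO replicates 1 and 3 left out together the counts were 2377 and 3108 genes, with 212 lower list members. The difference between GMPs and LT-HSCs was called for 1021 genes with edgeR and 1795 with DESeq2. Where counts moved, the cause was not tested.

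Deviations of same-numbered libraries from their group means had correlations of 0.0425, -0.0210 and 0.0282 over 12735 genes. So few pairs cannot decide whether the numbers pair the samples, and the labels do not say what a number stands for. With a replicate block the counts were 107 higher and 5 lower genes and 61 and 1 list members, and the log2 fold change of Alox5 was -0.049.

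Fold changes that turned their sign belonged to genes that were not called. When 1 library was left out they ranged as follows: Spi1 (-0.51 to 0.19), Gfi1 (-0.38 to 0.34), Mpo (-0.46 to 0.068), Ctsg (-0.16 to 0.50), Csf1r (-0.80 to 0.26), Csf3r (-0.0073 to 0.65), Elovl6 (-0.24 to 0.19), Acadm (-0.30 to 0.023), Alox5 (-0.33 to 0.59), Mki67 (-0.19 to 0.0048), Gbp3 (-0.17 to 0.11), Ifi47 (-0.015 to 0.51), Ifit1 (-0.28 to 2.12), Psmb8 (-0.069 to 0.14) and Nfkb1 (-0.025 to 0.11). With AML1-ETO replicates 1 and 3 left out together the values were Mpo 0.39, Cd34 0.13, Il7r -5.43, Hlf -0.46, Fcer1a -1.19, Ltf -7.98, Acly 0.00047, Elovl6 0.27, Acadm 0.057, Alox5 -1.05, Il1b -6.74, Xist -2.86, Ddx3y 0.21, Ifit1 -0.37, Mx1 -0.99, Psmb8 -0.11 and Nfkb1 -0.14. Il7r, Ltf and Il1b had no count in AML1-ETO replicate 2, so their fitted values there depend on the prior count. Gbp3 was 0.024 and 0.024 with DESeq2's size factors and its Wald test. Raw in place of TMM-scaled counts gives no separate value for the library measures, which use raw counts. Low genes were detected unevenly: 16.0% to 37.0% of genes at 1 to 5 CPM in control had no count in an AML1-ETO library and at most 0.233% in a control library. Depth was similar, and after thinning to the smallest total the gap in genes detected was -4812 against -4989.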
